A study of Rattus norvegicus with 48 samples.

Results

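The genes described here make cholesterol in the liver and control its supply. A list of 8 genes was taken (Hmgcs1, Idi1, Fdps, Sqle, Lss, Cyp51, Insig1 and Srebf2), and a member was any of them with a probe paired to its symbol. Of the 8, 5 had such a probe (Idi1, Fdps, Sqle, Cyp51 and Srebf2), out of 13337 genes with a named probe in the whole data set. Hmgcs1, Lss and Insig1 were not analysed here. The measured members are therefore 4 synthesis enzymes and 1 transcription factor, and none of them takes up lipoproteins.

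Liver cells build cholesterol from acetyl-CoA through mevalonate, isoprenoid diphosphates, squalene and lanosterol. When sterols in the endoplasmic reticulum run low, the protein SCAP carries SREBP2, the product of Srebf2, to the Golgi, where proteases release the part that switches on nearly every gene of the route. INSIG proteins hold SCAP and SREBP2 back when sterols are plentiful. In hepatocytes cholesterol is also taken up from lipoproteins, stored as esters, pumped into bile and turned into bile acids.

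RNA was measured on 48 Illumina arrays from laser-microdissected frozen liver sections of male F-344 rats. The rats were given diethylnitrosamine (DENA) at 150 mg/kg, recovered for 2 weeks and ate a diet with 0.02% 2-acetylaminofluorene (2-AAF) for 1 week. A partial hepatectomy and 1 more week of that diet followed, and then the basal diet. The groups were 10 control livers, 10 nodules labelled krt-19+ and 10 labelled krt-19- (both 10 weeks), 4 adenomas (10 months), 5 early carcinomas labelled eHCC (10 months) and 9 advanced carcinomas labelled aHCC (14 months). The same treatment text stood on all 48 samples, so the labels do not say separately what the control rats received, and they give no age for them. No label ties a lesion to an animal, so lesions may share an animal and the p-values, which measure the spread between samples, may then be too small.

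Krt19, the keratin after which the nodules were labelled, went against the labels in 10 of the 20 nodules. Its level was high in samples 1-5 (krt-19+, 11.64 to 13.15 on the log2 scale) and in samples 15-19 (krt-19-, 11.49 to 12.96). It was low in samples 6-10 (krt-19-, 7.69 to 10.50) and in samples 20-24 (krt-19+, 7.70 to 10.60). It was not settled whether the labels of samples 15-19 and 20-24 were exchanged, so a value by label may mix both kinds of nodule. The nodules were therefore also described as these 4 blocks of 5. The pooled Krt19-high (1-5 and 15-19) and Krt19-low (6-10 and 20-24) sets follow a measured gene and are given as a description. A test of whether the label difference turned over between the 2 number series, given later, sets the same arrays against each other. The aHCC sample 29 stood apart from its group. Its mean correlation with the other aHCC arrays was 0.858, against 0.958 to 0.995 for every other array with its own block, and it was the lowest of all 48 arrays in Idi1, Fdps, Sqle and Cyp51. The main results for members that rest on it are given with and without it. Hepatocyte markers (5 of the 7 listed were measured) were present on every array, with a summed intensity of 148795 to 215062 in control liver, 135109 to 208216 in the nodules, 135593 to 184216 in adenomas and eHCC, and 118649 to 176410 in aHCC.

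The promoters of 3 enzyme members are shown because Fdps and Cyp51 were lower than control in adenomas and eHCC and Idi1 was not. Within blocks Idi1 did run with both genes, as given later. Each run covers 250 bases before to 50 bases after the gene's start in RefSeq's GRCr8 assembly. It is written 5′ to 3′ on the gene's strand, with capitals for CCAAT (or ATTGG, the same box on the other strand) and GGGCGG (or CCGCCC). The RefSeq promoter table held 4 of the 5 members. Coordinates are chr2:176804767-176805066, minus strand, for Fdps, chr4:30991443-30991742, plus strand, for Cyp51, and chr17:66547475-66547774, minus strand, for Idi1.
Fdps: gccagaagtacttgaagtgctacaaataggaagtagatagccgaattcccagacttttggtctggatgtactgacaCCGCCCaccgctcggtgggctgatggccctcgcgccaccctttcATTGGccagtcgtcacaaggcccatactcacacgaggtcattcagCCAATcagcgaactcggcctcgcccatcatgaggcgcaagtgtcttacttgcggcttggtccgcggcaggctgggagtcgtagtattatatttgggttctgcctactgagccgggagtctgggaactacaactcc
Cyp51: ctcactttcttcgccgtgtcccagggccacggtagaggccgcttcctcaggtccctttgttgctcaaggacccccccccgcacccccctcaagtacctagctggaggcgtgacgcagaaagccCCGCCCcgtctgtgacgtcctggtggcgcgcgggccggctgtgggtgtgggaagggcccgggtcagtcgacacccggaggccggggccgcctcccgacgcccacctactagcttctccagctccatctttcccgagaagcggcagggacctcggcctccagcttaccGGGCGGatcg
Idi1: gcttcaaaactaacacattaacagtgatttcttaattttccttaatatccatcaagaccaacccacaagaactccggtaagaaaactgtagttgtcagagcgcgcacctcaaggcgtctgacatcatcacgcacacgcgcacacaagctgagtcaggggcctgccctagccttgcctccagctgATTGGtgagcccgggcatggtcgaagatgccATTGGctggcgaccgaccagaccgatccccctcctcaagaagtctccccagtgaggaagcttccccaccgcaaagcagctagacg
The Fdps window held 2 CCAAT boxes and 1 GGGCGG box, the Cyp51 window 0 and 2, and the Idi1 window 2 and 0. Among 33469 promoters of the same length, 37.5% held CCAAT and 33.1% held GGGCGG on either strand. Over the 12 measured synthesis enzymes with a promoter in the table, 9 held CCAAT and 10 held GGGCGG. The sterol element, searched as TCACNCCAC, and the E-box CACGTG were looked for on both strands too. The first was found in 1.12% of all promoters and the E-box in 6.42%. None of the 3 printed windows held either, and over the 12 enzymes the counts were 0 and 1. Only exact matches to these patterns were counted. A sterol element of another sequence would be missed, so these counts do not show that the windows lack one.

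Cyp51, the lanosterol demethylase, was the member that fell in most lesions. On the log2 intensity scale, control liver ran from 8.40 to 9.39 with a median of 8.73 (mean 8.82 ± 0.29, SD, n = 10). The 4 adenomas read 7.58, 8.17, 7.74 and 7.93, and the 5 eHCC read 8.07, 7.43, 8.24, 7.82 and 7.99. All 9 of these lesions lay below the lowest control. The fall from control was 0.96 ± 0.21 (SE) on the log2 scale in adenomas, or 1.95-fold (limma with Benjamini-Hochberg adjustment, adjusted p = 0.000419). In eHCC it fell by 0.91 ± 0.19 (SE) on the log2 scale, or 1.88-fold (limma, adjusted p = 0.000227). These 2 groups of lesions did not separate from each other in Cyp51, their ranges overlapping almost completely.

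Cyp51 was already lower in both labelled groups of nodules. The krt-19+ nodules ran from 7.69 to 8.64 with a median of 8.29, and 6 of the 10 lay below the lowest control. The krt-19- nodules ran from 7.65 to 8.89 with a median of 8.17, and 7 of the 10 did so. Against control the level fell by 0.55 ± 0.16 (SE) in krt-19+ nodules (limma, adjusted p = 0.00969) and by 0.60 ± 0.16 in krt-19- nodules (limma, adjusted p = 0.00542). In aHCC the 9 arrays ran from 7.42 to 9.10 with a median of 8.63, and 7 of them lay inside the control range. The aHCC change of -0.28 ± 0.16 (SE) did not pass (limma, adjusted p = 0.174), nor did it without sample 29 (-0.14, adjusted p = 0.464). Cyp51 was higher in aHCC than in eHCC by 0.63 ± 0.20 (SE, limma, adjusted p = 0.023). That last call was lost without eHCC sample 39 (0.51, adjusted p = 0.11) or sample 44 (0.61, adjusted p = 0.0543), and with sets of 12 consecutive sample numbers as a block (0.30, adjusted p = 0.813).

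Fdps, which joins isoprenoid units into farnesyl diphosphate in the steps before squalene, fell in the lesions of 10 months. Control liver ran from 11.66 to 12.49 with a median of 12.18 on the log2 scale (mean 12.13 ± 0.25, SD, n = 10). The adenomas read 10.50, 11.45, 10.65 and 11.31, and the eHCC read 11.22, 10.36, 11.56, 11.26 and 11.14. All 9 lay below the lowest control, as they did for Cyp51. Fdps fell by 1.16 ± 0.32 (SE) on the log2 scale in adenomas, or 2.23-fold (limma, adjusted p = 0.00529), and by 1.02 ± 0.30 in eHCC, or 2.03-fold (limma, adjusted p = 0.00616). With the sets of 12 as a block the 2 falls were 0.87 and 0.74 and neither passed (adjusted p = 0.146 and 0.182), and against the 3 controls of the same set alone the eHCC fall of 0.74 had an adjusted p of 0.0545.

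In aHCC and in the nodules the Fdps result depended on sample 29. The aHCC ran from 8.84 in sample 29 to 12.16, with a median of 11.64, and 5 of the 9 lay below the lowest control. Fdps fell by 0.71 ± 0.25 (SE) in aHCC (limma, adjusted p = 0.0207), and without sample 29 by 0.39, which did not pass (adjusted p = 0.0632). With the set block and with the controls of the same set the change was -0.76 in both, with a wider SE of 0.37 and 0.55, and neither passed (adjusted p = 0.162 and 0.484). In krt-19+ nodules Fdps ran from 10.89 to 12.45 and in krt-19- nodules from 10.94 to 12.28, with 3 and 7 of 10 below the lowest control. Their changes of -0.47 ± 0.24 and -0.57 ± 0.24 (SE) did not pass with all arrays (limma, adjusted p = 0.191 and 0.0952). With sample 29 left out, the same changes passed (adjusted p = 0.0292 and 0.0069). Without that sample Fdps was also higher in aHCC than in eHCC by 0.64 (adjusted p = 0.0204), against 0.31 with it (adjusted p = 0.546).

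Idi1, the isomerase that balances the 2 isoprenoid units feeding Fdps, passed in no comparison with all arrays. Control liver ran from 9.66 to 10.74 with a median of 10.23. The adenomas read 10.97, 11.10, 9.88 and 10.27, and the eHCC read 10.86, 10.16, 11.17, 10.61 and 10.31. Of these 9 lesions, 4 lay above the highest control and 5 inside the control range, and none lay below it. The changes were 0.29 ± 0.29 (SE) in adenomas and 0.36 ± 0.26 in eHCC (limma, adjusted p = 0.522 and 0.338), with 95% intervals of -0.29 to 0.87 and -0.18 to 0.89. In krt-19+ and krt-19- nodules Idi1 read -0.2 and -0.35 against control (limma, adjusted p = 0.607 and 0.273). The aHCC ran from 8.30 in sample 29 to 11.16 with a median of 10.40, and 3 of the 9 lay above the highest control. Without sample 29 Idi1 was higher in aHCC than in the mean of both nodule groups by 0.64 (adjusted p = 0.000651), against 0.38 with it (adjusted p = 0.141).

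Sqle, the epoxidase that commits squalene to sterols, also passed in no comparison with all arrays. Control liver ran from 9.40 to 10.80 with a median of 10.12, the widest control range of the members. The adenomas read 10.17, 10.68, 9.71 and 9.94, and the eHCC read 10.60, 10.07, 10.66, 10.10 and 9.89, all inside the control range. The aHCC ran from 8.95 to 10.83 with a median of 10.14, sample 29 again being the lowest. The changes from control were between 0 in adenomas and 0.17 in krt-19+ nodules. The 95% intervals were -0.49 to 0.48 in adenomas, -0.31 to 0.59 in eHCC and -0.35 to 0.40 in aHCC, so changes of the size seen for Fdps in adenomas lay outside them.

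Srebf2, the gene of SREBP2 itself, was read at the edge of background. It was detected on 4 of 48 arrays, 2 adenomas and 2 eHCC, and on none of the 10 controls. The probe filter asked for detection on at least 4 arrays, so Srebf2 entered the fit only through these 2 groups. Levels were 7.45, 7.40, 7.24 and 7.10 in adenomas, 7.44, 7.34, 7.22, 7.24 and 7.11 in eHCC, and 6.92 to 7.30 in controls, where the median over all probes and arrays was 7.32. The fit gave differences of 0.21 in adenomas and 0.18 in eHCC (limma, adjusted p = 0.0276 and 0.0306), and no fold is given because both groups lay at background. These calls are no evidence of a rise, since the groups called higher are those that let the gene through the filter. Both calls were lost with the sets of 12 as a block (adjusted p = 0.369 and 0.432).

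**Figure D1:**
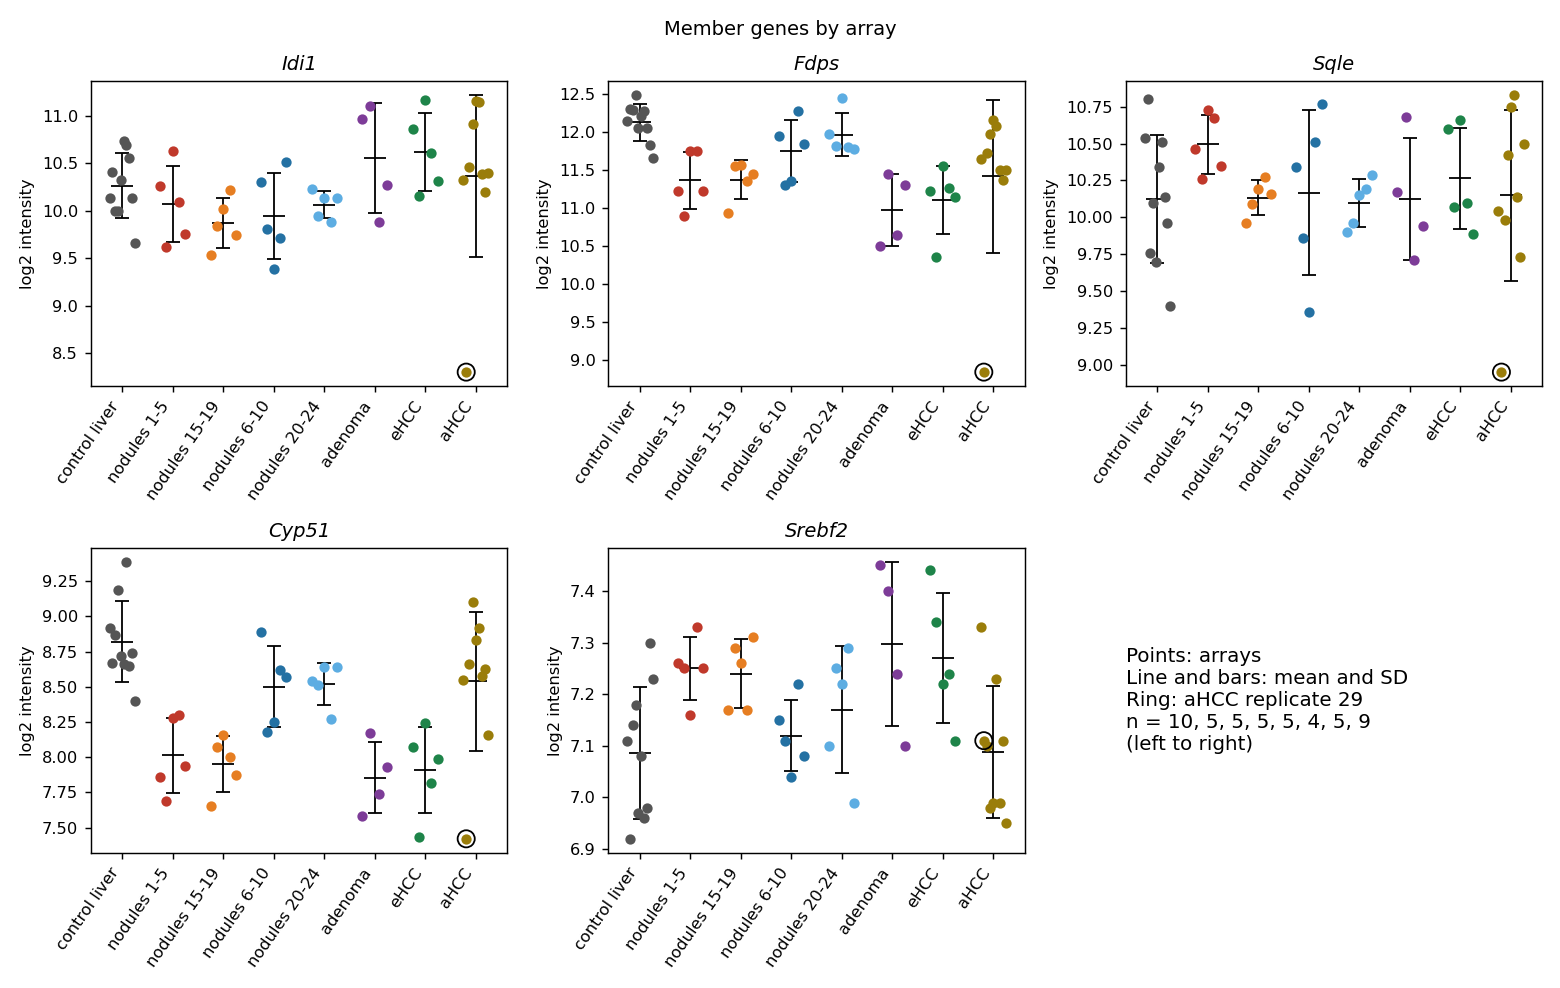
Log2 intensity of the 5 measured members on each of the 48 arrays (points), by control liver, the 4 blocks of nodules, adenoma, eHCC and aHCC, with the mean and SD of each group and a ring around aHCC sample 29. In Cyp51 and Fdps all adenomas and eHCC sit below every control, while Idi1 and Sqle overlap the controls in every group.

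In counts, 1 of the 5 members passed in krt-19+ nodules, where 18.7% of all 13479 features did, and 1 in krt-19- nodules, where 19.5% did. Among adenomas 3 of 5 passed against 26% of all features, and among eHCC 3 of 5 against 32.2%. Both counts include Srebf2, which lay at background and passed the probe filter only through these 2 groups. In aHCC 1 of 5 passed against 38%, and 0 without sample 29. Between aHCC and eHCC 1 of 5 passed against 15.8%. Between aHCC and the mean of both nodule groups 0 passed by limma against 30.7% of all features, 2 having an unadjusted p under 0.05. Between the 2 labels of nodules and between eHCC and adenomas the members passing were 0, as for all features (0%), and 0 had an unadjusted p under 0.05. With so few members these counts say little beyond the single genes, and all comparisons with control liver share the same 10 controls.

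The rest of the route was read through 11 further enzymes, so that 15 were measured in all. Of the 15, 9 fell and 1 rose in adenomas, and 10 fell and 1 rose in eHCC, while 12.6% and 15.1% of all features fell and 13.5% and 17% rose. The median change was -0.96 in adenomas and -0.91 in eHCC on the log2 scale, against medians over all features of -0.01 and 0. The falls spread along the route. They took in Pmvk and Mvd, which phosphorylate and decarboxylate mevalonate, Fdft1, the squalene synthase, and the late sterol enzymes Tm7sf2, Nsdhl, Ebp and Sc5d. In adenomas the largest falls among the other enzymes were those of Tm7sf2 (-1.54 ± 0.32, SE, limma, adjusted p = 0.000256) and Sc5d (-1.23 ± 0.24, adjusted p = 0.000109). In eHCC they were those of Tm7sf2 (-1.52 ± 0.30) and Ebp (-1.32 ± 0.18, SE, limma, adjusted p = 7.39e-05 and 1.96e-07). A second probe of Tm7sf2 gave -1.08 in adenomas and -0.89 in eHCC, but 0.12 in aHCC, where the brighter probe gave -0.84. With the sets of 12 as a block 6 enzymes fell and 1 rose in adenomas and in eHCC, where 20.2% and 25.6% of all features then passed.

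Dhcr7, the reductase of the last step to cholesterol, went the other way. Control liver ran from 11.77 to 12.74 on the log2 scale, the adenomas from 13.06 to 13.62 and the eHCC from 13.03 to 13.72, so that neither group overlapped the controls. Dhcr7 rose by 1.13 ± 0.22 (SE) in adenomas and 1.13 ± 0.21 in eHCC (limma, adjusted p = 0.000127 and 2.7e-05). In aHCC it ran from 11.21 to 13.07 and the change of 0.05 ± 0.17 did not pass (adjusted p = 0.862). Dhcr7 was lower in aHCC than in eHCC by 1.08 on the log2 scale (-1.08 ± 0.21, SE, limma, adjusted p = 0.000318). The set block ended this last call (-0.89, adjusted p = 0.407).

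The nodules of 10 weeks were lower in fewer enzymes when grouped by label, a difference between stages that was not tested. In krt-19+ nodules 6 of 15 fell and 1 rose, with a median of -0.41, and in krt-19- nodules 7 fell and 1 rose, with a median of -0.48. Among all features 8.98% and 9.7% fell, and 9.69% and 9.83% rose. In krt-19+ nodules Sc5d and Pmvk showed the largest falls of the other enzymes, at -0.70 and -0.68 (limma, adjusted p = 0.00425 and 0.000952). In krt-19- nodules they were Sc5d and Fdft1, at -0.80 and -0.70 (limma, adjusted p = 0.00116 and 0.0227). Dhcr7 was the enzyme that rose, by 0.65 and 0.53 (adjusted p = 0.00418 and 0.0211). With the sets of 12 as a block 2 and 3 enzymes fell and 0 rose, and 11.3% of all features passed in each group. Leaving out 1 array at a time, 4 to 7 fell in krt-19+ nodules and 4 to 10 in krt-19- nodules.

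In aHCC 7 of the 15 enzymes fell and 0 rose, with a median of -0.42, while 18.8% of all features fell and 19.2% rose. Sc5d fell by 1.23 ± 0.19 and Nsdhl by 1.12 ± 0.23 (SE, limma, adjusted p = 8.55e-07 and 0.000127). Mvd and Pmvk, lower at 10 months, did not pass (0.16 and -0.30, adjusted p = 0.333 and 0.129). Without sample 29, 5 enzymes fell and the median was -0.33. With the set block 1 fell, and against the 3 controls of the same set 0 fell, at medians of -0.41 in both. The share of all features passing in either direction went from 38% to 15.4% and 7.98% under these 2 settings. Set against eHCC, 4 enzymes were higher in aHCC (Pmvk, Ebp, Mvd and Cyp51) and Dhcr7 was lower, while 7.37% of all features were higher and 8.46% lower. The differences were 0.92 for Pmvk, 0.89 for Ebp and 0.78 for Mvd (limma, adjusted p = 0.000651, 0.000728 and 0.000502). The set block left 0 of these 5 calls, at 0.89, 0.65 and 0.49 for the same genes in turn (adjusted p = 0.38, 0.487 and 0.569). Without sample 29, 6 enzymes were higher in aHCC than in eHCC, Fdps and Fdft1 (0.61, adjusted p = 0.0271) being added, and Dhcr7 was lower. The aHCC and the eHCC lie in different sets, each with 3 controls, and the block left 1 of all 13479 features past the threshold between them. Set against the mean of both nodule groups, Mvd and Pmvk were higher in aHCC by 0.63 and 0.39 (limma, adjusted p = 2.46e-05 and 0.0255), and Tm7sf2, Dhcr7 and Sc5d were lower, while 16.1% of all features were higher and 14.6% lower. The Tm7sf2 difference was -0.89, that of Dhcr7 -0.54 and that of Sc5d -0.48 (limma, adjusted p = 0.00133, 0.00466 and 0.0197), and with the set block 0 enzymes and 11 features passed. Without sample 29, 5 enzymes were higher and 2 lower, and the median moved from -0.08 to 0.13. Idi1, Cyp51 and Acat2 (0.28, adjusted p = 0.0271) were then among the higher, and Sc5d no longer passed (-0.37, adjusted p = 0.0628). With the mean of its probes the Tm7sf2 difference was -0.49 and did not pass (adjusted p = 0.0803).

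**Figure D2:**
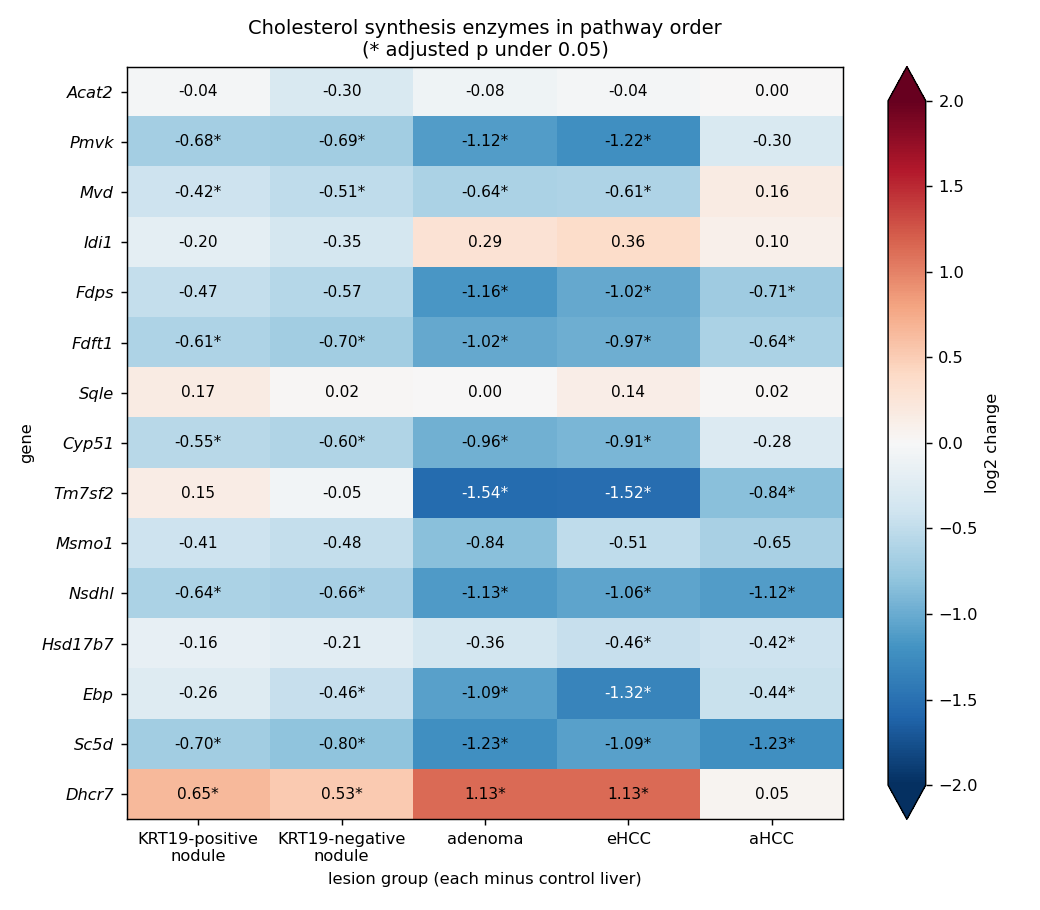
Log2 change from control liver of the 15 measured synthesis enzymes, top to bottom in pathway order, in each lesion group, on a colour scale with the value printed and a star at an adjusted p under 0.05. KRT19-positive and KRT19-negative stand for the krt-19+ and krt-19- labels. Most enzymes are lower in adenoma and eHCC, Dhcr7 is higher there, and Idi1 and Sqle carry no star.

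Within the nodules, both blocks with high Krt19 were lower in Cyp51 than control. Samples 1-5 read 7.86, 7.69, 8.28, 8.30 and 7.94, and samples 15-19 read 7.65, 8.07, 8.16, 8.00 and 7.87. All 10 lay below the lowest control, although the blocks carry opposite labels. Samples 6-10 read 8.89, 8.18, 8.25, 8.62 and 8.57, and samples 20-24 read 8.54, 8.51, 8.64, 8.27 and 8.64, and 7 of these 10 lay inside the control range. Cyp51 fell by 0.81 ± 0.17 (SE) in samples 1-5 and by 0.87 ± 0.17 in samples 15-19 (limma, adjusted p = 0.000293 and 9.77e-05). The changes of -0.32 ± 0.17 in samples 6-10 and -0.30 ± 0.17 in samples 20-24 did not pass (adjusted p = 0.254 and 0.332), though against the controls of the same set the latter was -0.51 with an adjusted p of 0.0283.

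The difference between the labels turned over between the 2 series of nodules. The krt-19+ minus krt-19- difference in Cyp51 was -0.49 in samples 1-10 and 0.57 in samples 15-24 (limma, adjusted p = 0.128 and 0.0771). The difference of these differences was -1.06 ± 0.28 (SE, limma, adjusted p = 0.00533), and it stayed past the threshold under every alternative and with each array left out in turn. In this contrast 1 of 5 members passed against 19.2% of all features. It holds the same arrays on the same sides as Krt19-high against Krt19-low, so it is no separate evidence for either reading. Described by measured Krt19, Cyp51 ran from 7.65 to 8.30 in the 10 Krt19-high nodules and from 8.18 to 8.89 in the 10 Krt19-low nodules.

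Fdps was also lower than control in samples 1-5 and 15-19. It read 11.22, 10.89, 11.75, 11.75 and 11.22 in samples 1-5 and 10.94, 11.56, 11.57, 11.36 and 11.45 in samples 15-19, with 8 of these 10 below the lowest control. Samples 6-10 read 11.95, 11.31, 11.36, 12.28 and 11.85, and samples 20-24 read 11.98, 11.82, 12.45, 11.81 and 11.78, with 2 of these 10 below it. The falls of 0.77 ± 0.29 in samples 1-5 and 0.76 ± 0.29 in samples 15-19 (SE) passed narrowly (limma, adjusted p = 0.0436 and 0.0427). Both missed the threshold without a filter on dim probes (-0.77 and -0.76, adjusted p = 0.0668 and 0.064) and without controls 25 to 27 (-0.74 in both, adjusted p = 0.0839), at nearly the same size. The changes of -0.38 in samples 6-10 and -0.17 in samples 20-24 did not pass (adjusted p = 0.452 and 0.819). The difference of the label differences in Fdps was -0.97 ± 0.47 (SE) and did not pass (limma, adjusted p = 0.156), though it did without aHCC sample 29 (-0.97, adjusted p = 0.0103). Idi1 and Sqle overlapped between the sets, running from 9.53 to 10.63 and 9.96 to 10.73 in Krt19-high nodules and from 9.39 to 10.51 and 9.36 to 10.77 in Krt19-low nodules.

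Over the whole route, 7 of 15 enzymes fell and 1 rose in samples 1-5, and 9 fell and 1 rose in samples 15-19, while 13.4% and 14.5% of all features fell and 13.5% and 15.2% rose. In samples 6-10 the counts by limma were 0 and 0, with 3 enzymes at an unadjusted p under 0.05, and in samples 20-24 they were 1 (Pmvk) and 0. There 5.04% and 3.56% of all features fell, and 4.92% and 3.72% rose. The median change of the 15 enzymes was -0.49 in samples 1-5 and -0.65 in samples 15-19. It was -0.32 in samples 6-10 and -0.20 in samples 20-24, so these blocks leaned lower too. The largest falls of the other enzymes were those of Sc5d and Nsdhl in samples 1-5 (-0.98 and -0.87, limma, adjusted p = 0.000288 and 0.0108) and those of Pmvk and Fdft1 in samples 15-19 (-1.10 and -1.02, adjusted p = 2.63e-07 and 0.00253). Dhcr7 was the enzyme that rose in both, by 0.98 and 0.73 (limma, adjusted p = 5.3e-05 and 0.002). With the sets of 12 as a block 2 enzymes fell in samples 1-5 and 4 in samples 15-19, and 0 rose. Of all features 15.4% and 12.3% then passed. Leaving out 1 array at a time gave 4 to 9 falls in samples 1-5 and 8 to 10 in samples 15-19, and without controls 25 to 27 there were 4 and 8. In samples 20-24 there were 3 falls against controls of the same set and 4 with array weights, where 9.57% and 16.8% of all features passed. In counts of members, 2 of 5 passed in samples 1-5 against 26.9% of all features and 2 of 5 in samples 15-19 against 29.6%. None passed in samples 6-10 (9.96%) or in samples 20-24 (7.28%), and 0 had an unadjusted p under 0.05 in either. Within samples 1-10 and within samples 15-24 the label difference passed for 0 of 5 members against 7.77% and 6.34%, with 1 member each time at an unadjusted p under 0.05. Without aHCC sample 29, Cyp51 passed in both. Of the 15 enzymes, 1 was higher and 0 lower by limma in the label difference within samples 1-10, and 0 passed within samples 15-24. The shares of all features are those just given, and 5 and 6 enzymes had an unadjusted p under 0.05. The median label differences were -0.35 and 0.50.

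Markers of other cells moved with these blocks. The summed intensity of 5 of 6 listed biliary and progenitor markers, Krt19 among them, was 9390 to 17147 in samples 1-5 and 8433 to 15598 in samples 15-19. It was 1884 to 5434 in samples 6-10, 1299 to 3932 in samples 20-24 and 1149 to 1768 in control liver. Krt19 is part of this sum and also named the blocks high or low. The separation of the blocks in this sum was therefore partly set in advance, and no sum without Krt19 is given. The 6 stellate and fibroblast markers summed to 7141 to 10959 and 9318 to 15593 in the Krt19-high blocks, 3579 to 8322 and 4465 to 6579 in the others, and 2399 to 4611 in control liver. One of them, Lum, was detected on 5 of 10 controls and on no array of samples 1-5, 15-19 or 20-24, adenomas or eHCC. The sum therefore does not show that every marker rose. The 5 hepatocyte markers summed to 182306 to 203396 in samples 1-5, 135109 to 177654 in samples 15-19, 201973 to 208216 in samples 6-10 and 184423 to 194866 in samples 20-24. Macrophage, T cell and cell cycle genes had higher medians in samples 1-5 and 15-19 than in samples 6-10 and 20-24, with ranges that overlap between some of the blocks. The 4 macrophage markers measured of 7 listed summed to 7169 to 12999 and 9284 to 14332 in samples 1-5 and 15-19, 5177 to 9346 and 6200 to 9706 in samples 6-10 and 20-24, and 6744 to 14082 in control liver. The 3 T cell markers of 4 listed had median sums of 594 and 637 in samples 1-5 and 15-19, 496 and 547 in the other blocks, and 609 in control liver. The 7 cell cycle genes of 10 listed summed to 3955 to 6530 and 4384 to 5120, against 2369 to 5036 and 2868 to 4832, and 2537 to 3506 in control liver. The 2 endothelial markers of 5 listed overlapped in every block. Detected probes numbered 9424 to 10412 and 10574 to 10695 in samples 1-5 and 15-19, 8380 to 9328 and 9268 to 10417 in samples 6-10 and 20-24, and 8323 to 9682 in control liver. The part of these cells and of detection in the enzyme differences was not tested, and in microdissected bulk RNA fewer cells of a type and less RNA per cell cannot be told apart. At 10 months the fibroblast sums were 4709 to 25944 in adenomas and 5562 to 25554 in eHCC, and the biliary sums 4533 to 40071 and 5530 to 48409.

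**Figure D3:**
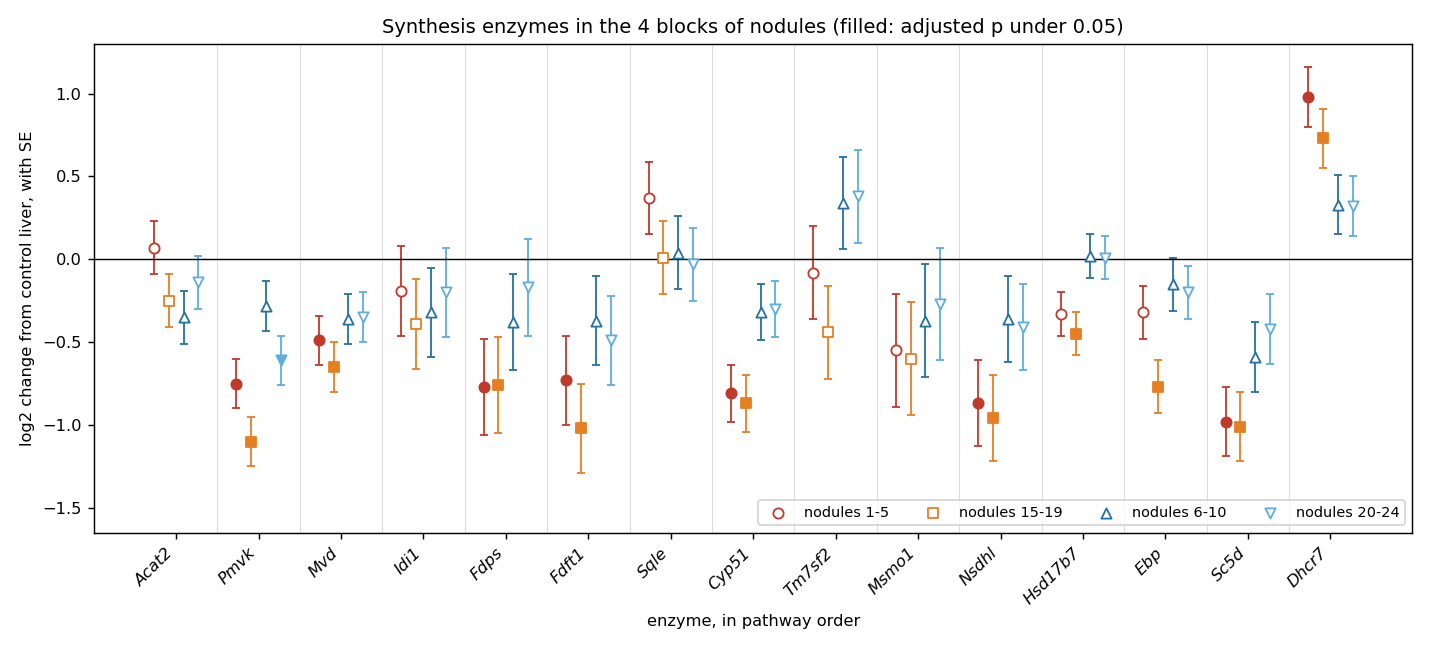
Log2 change from control liver with its SE for the 15 synthesis enzymes in pathway order, in the 4 blocks of 5 nodules, with filled symbols at an adjusted p under 0.05. Samples 1-5 and 15-19, the blocks with high Krt19, carry nearly all filled symbols, with Pmvk in samples 20-24 as the exception.

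Across the 48 arrays Fdps and Cyp51 ran together (Pearson r = 0.84, Spearman rho = 0.90), and they still did after the means of the 8 blocks were subtracted (r = 0.86) and without sample 29 (r = 0.89). Idi1 ran most closely with Sqle (r = 0.69, and 0.59 without sample 29). Between the 2 pairs the link was weaker over all arrays, Idi1 and Fdps having r = 0.45, and 0.16 without sample 29. With block means subtracted it was closer, at 0.79 for Idi1 and Fdps, 0.72 for Idi1 and Cyp51 and 0.70 for Fdps and Sqle, and without sample 29 as well at 0.60, 0.57 and 0.61. These are descriptions over arrays that share groups and a normalization.

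**Figure D4:**
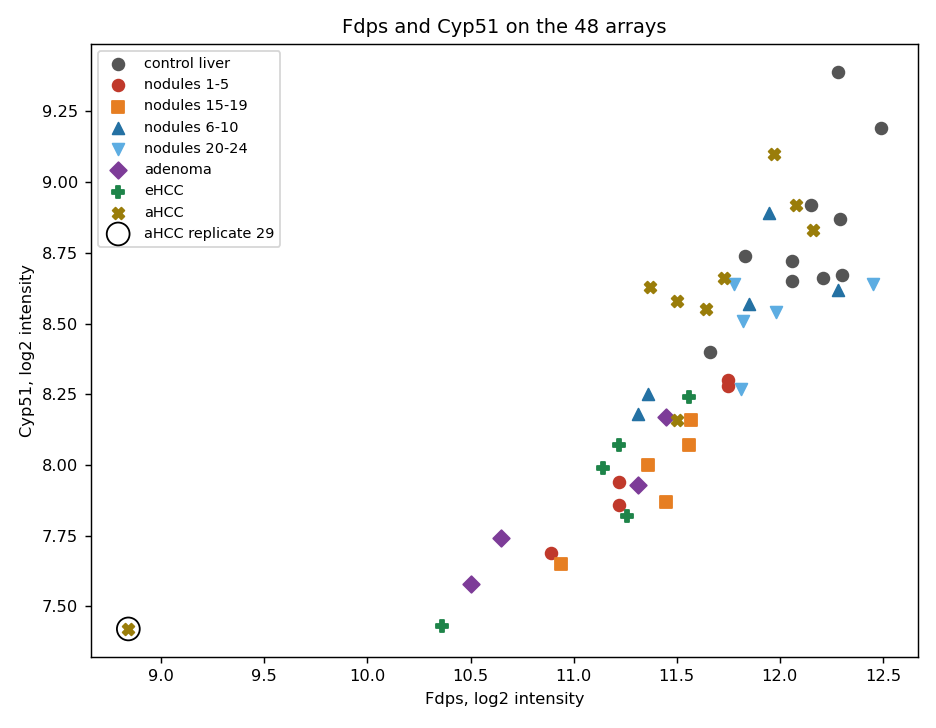
Log2 intensity of Cyp51 against that of Fdps on the 48 arrays, marked by group, with a ring around aHCC sample 29. Control livers lie at the upper right, adenomas, eHCC and nodules 1-5 and 15-19 lie lower in both genes, and aHCC lie mostly between or with the controls.

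The named genes most like the mean standardised level of the 5 members over the 48 arrays were Msmo1 (r = 0.883), Acat2 (0.782), Fdft1 (0.774), Cd302 (0.746) and Rpa3 (0.731). Msmo1, Acat2 and Fdft1 are enzymes of the same route. With block means subtracted the 5 were Msmo1 (0.899), Fdft1 (0.863), Acat2 (0.831), Thrsp (0.812) and Cd302 (0.797). Without sample 29 they were Msmo1 (0.811), Acat2 (0.745), Fdft1 (0.67), Mvd (0.664) and Acss2 (0.589), so Cd302 and Rpa3 were in the list only with that array.

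Of 5 measured genes listed for SREBP control, Srebf1 among them, Insig2 fell in every lesion group. INSIG2 retains SCAP and SREBP in the endoplasmic reticulum. Control liver ran from 12.79 to 13.74 on the log2 scale, the adenomas from 10.89 to 12.42 and the eHCC from 10.38 to 12.01, with no overlap. The change was -1.43 ± 0.32 (SE) in krt-19+ nodules, -1.29 ± 0.32 in krt-19- nodules, -1.62 ± 0.42 in adenomas, -1.98 ± 0.39 in eHCC and -1.52 ± 0.32 in aHCC. The adjusted p by limma was 0.000871, 0.00262, 0.00277, 7.42e-05 and 0.000189 in turn, and with the set block the aHCC change of -1.18 did not pass (adjusted p = 0.0884). Like Cyp51, Insig2 was lower in samples 1-5 and 15-19 (-1.91 and -1.99, limma, adjusted p = 1.06e-05 and 4.71e-06), and did not pass in samples 6-10 or 20-24 (-0.58 and -0.94, adjusted p = 0.281 and 0.0662).

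Srebf1, whose SREBP1 product mainly drives fatty acid synthesis, was lower in adenomas, eHCC and aHCC, and in samples 1-5 and 15-19 of the nodules. Its change was -0.94 ± 0.31 (SE) in adenomas, -0.96 ± 0.28 in eHCC and -1.49 ± 0.24 in aHCC (limma, adjusted p = 0.0189, 0.00733 and 2.28e-06). It did not pass in the labelled nodule groups (-0.34 and -0.32, adjusted p = 0.35 and 0.369), but samples 1-5 and 15-19 taken alone were lower (-0.89 and -0.74, adjusted p = 0.00232 and 0.00982). The adenoma call was lost without sample 42 (-0.85, adjusted p = 0.0744) or 41 (-0.90, adjusted p = 0.054), and the eHCC call without sample 39 (-0.76, adjusted p = 0.0565). Mbtps1, the protease that starts the release of SREBP, was higher by 0.51 and 0.55 in the nodules, 0.44 in adenomas and 0.59 in eHCC (adjusted p = 0.000114, 3.34e-05, 0.00717 and 8.93e-05). In aHCC Mbtps1 read -0.28 (adjusted p = 0.0226), which became 0.12 with the set block (adjusted p = 0.541). Scap, the escort, fell in aHCC (-0.40, adjusted p = 0.00657) and Mbtps2, the other protease, rose there (0.19, adjusted p = 0.0213), and with the set block neither passed (adjusted p = 0.287 and 0.44). Of all features, 9.69% to 19.2% rose and 8.98% to 18.8% fell in these 5 comparisons, so a count of 1 in 5 is near the background. In all, 1 of the 5 rose in each lesion group, 1 fell in each labelled nodule group, 2 in adenomas and in eHCC, and 4 in aHCC, at median changes of -0.12, -0.13, -0.29, -0.32 and -0.40.

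Genes of uptake and lysosomal release, 5 of 10 listed being measured, fell in part. None rose by limma in the 5 lesion groups, 1 fell in each labelled nodule group, 3 in adenomas, 3 in eHCC and 2 in aHCC, at median changes of -0.10, -0.03, -0.45, -0.49 and -0.23. Among all features 8.98%, 9.7%, 12.6%, 15.1% and 18.8% fell in turn, and 9.69%, 9.83%, 13.5%, 17% and 19.2% rose. In the blocks of nodules 1 fell in samples 1-5 and 3 in samples 15-19, and 1 rose in samples 6-10 and 1 in samples 15-19. Of all features 13.4% and 14.5% fell in samples 1-5 and 15-19, and 4.92% and 15.2% rose in samples 6-10 and 15-19. A count of 1 in 5 is near the background. Npc1, which passes cholesterol out of lysosomes, read -1.04 in adenomas, -1.01 in eHCC and -1.12 in aHCC (adjusted p = 0.000486, 0.000172 and 1.73e-06). Scarb1, the receptor for high-density lipoprotein, read -0.66, -0.75 and -0.63 in the same groups (adjusted p = 0.00204, 0.000135 and 0.000117). Stard4, a sterol carrier of the cytosol, was among those that fell in krt-19- nodules (-0.31, adjusted p = 0.0155), and Npc1 among those in krt-19+ nodules (-0.48, adjusted p = 0.0425). With the set block the nodule calls of Npc1 and Stard4 and the aHCC call of Scarb1 were lost (adjusted p = 0.0856, 0.117 and 0.0506). Lipa and Npc2, also of the lysosome, passed in none of the 5 lesion groups.

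Export, storage and conversion, with 8 of 10 listed genes measured, split in direction. Of the 8, 2 rose and 1 fell in krt-19+ nodules, 2 rose and 2 fell in krt-19- nodules, 0 and 4 in adenomas, 1 and 5 in eHCC, and 2 and 3 in aHCC, at median changes of -0.14, -0.09, -0.45, -0.53 and -0.26. Of all features 9.69%, 9.83%, 13.5%, 17% and 19.2% rose and 8.98%, 9.7%, 12.6%, 15.1% and 18.8% fell, so counts of 1 or 2 in 8 are near the background. Cyp7a1, the rate-limiting enzyme of bile acid synthesis, held the largest fall of any cholesterol gene measured. Control liver ran from 11.02 to 13.03 on the log2 scale, the adenomas from 7.68 to 10.18 and the eHCC from 7.32 to 10.08, with no overlap. The Cyp7a1 changes were -3.10 ± 0.61 and -2.93 ± 0.56 (SE, limma, adjusted p = 0.000123 and 5.74e-05). In aHCC Cyp7a1 read -1.34 (adjusted p = 0.0212), and without sample 29 -0.92, which did not pass (adjusted p = 0.0737). Cyp27a1, which oxidises the sterol side chain, fell in adenomas, eHCC and krt-19- nodules (-0.73, -0.81 and -0.37, limma, adjusted p = 0.00172, 0.00015 and 0.0477). With the set block the adenoma and nodule calls of Cyp27a1 were lost (adjusted p = 0.0506 and 0.34).

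Abcg5, part of the pump that sends sterols into bile, rose in krt-19+ nodules by 1.67 ± 0.23, in krt-19- nodules by 0.99 ± 0.23 and in aHCC by 0.94 ± 0.23 (SE, limma, adjusted p = 3.5e-07, 0.00121 and 0.00109). It did not pass in adenomas or eHCC (0.20 and -0.27, adjusted p = 0.698 and 0.501). Abcg1, a cholesterol exporter, rose by 0.69, 0.61, 0.85 and 0.48 in krt-19+ nodules, krt-19- nodules, eHCC and aHCC (adjusted p = 0.00634, 0.0153, 0.0032 and 0.0453), and its aHCC call was lost without sample 29 (0.40, adjusted p = 0.0949). Abca1, the exporter that loads apolipoprotein A-I, fell in all 5 lesion groups, with changes from -0.41 in krt-19- nodules (adjusted p = 0.013) to -0.68 in aHCC (adjusted p = 2.05e-05). With the set block the nodule calls of Abcg1 and Abca1 were lost (Abcg1 0.56 and 0.49, adjusted p = 0.157 and 0.224, and Abca1 -0.32 and -0.30, adjusted p = 0.199 and 0.219), and those of Abcg5 were kept.

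The fatty acid genes driven by SREBP1, 6 of 8 listed being measured, were lower in aHCC, where 5 fell and 0 rose at a median of -1.77, while 18.8% of all features fell. In adenomas and eHCC 3 fell and 1 rose, at medians of -0.68 and -0.72. Of all features 12.6% and 15.1% fell there, and 13.5% and 17% rose. In krt-19+ nodules 0 fell and 1 rose, and in krt-19- nodules 1 fell and 1 rose, at medians of -0.17 and -0.31. Of all features 8.98% and 9.7% fell in these nodules and 9.69% and 9.83% rose, so a count of 1 in 6 is near the background. Fads2 and Fads1, the desaturases of long-chain fatty acids, read -2.52 and -1.40 in adenomas, -2.46 and -1.33 in eHCC and -2.32 and -2.22 in aHCC (adjusted p = 2.57e-06, 0.0111, 4.78e-07, 0.00748, 3.31e-08 and 7.06e-07). Me1, the malic enzyme that supplies NADPH, was the one that rose, by 0.83, 0.62, 1.17 and 1.08 in krt-19+ nodules, krt-19- nodules, adenomas and eHCC (adjusted p = 0.005, 0.0376, 0.0018 and 0.00136), and in aHCC it read 0.13 (adjusted p = 0.694). With the set block Me1 did not pass in the nodules (adjusted p = 0.0849 and 0.233), nor Fads1 in adenomas and eHCC (-1.40 and -1.32, adjusted p = 0.0628 and 0.0554). Fads1 also missed without adenoma sample 42 (-1.05, adjusted p = 0.11) and without eHCC sample 39 (-1.01, adjusted p = 0.0668).

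**Figure D5:**
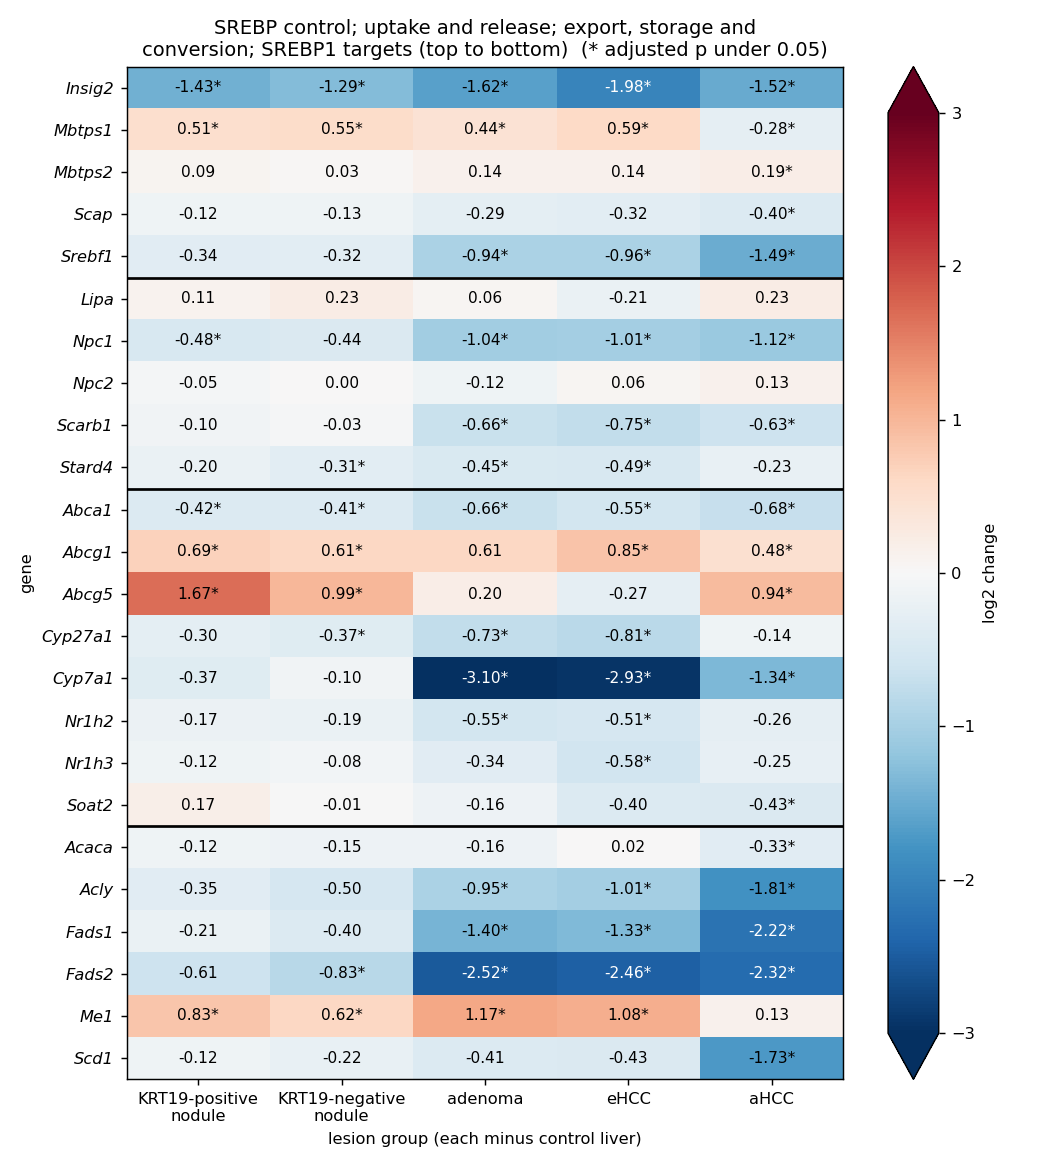
Log2 change from control liver of measured genes of SREBP control, uptake and release, export, storage and conversion, and SREBP1 targets (blocks from top to bottom), with the value printed and a star at an adjusted p under 0.05. Insig2 and Abca1 are lower in all 5 lesion groups, Cyp7a1 is lowest in adenoma and eHCC, and Abcg5 is higher in the nodules and aHCC.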

How the data were processed

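The members and gene lists were chosen with earlier results of these data known. Each array has 22523 probes, for which the authors deposited an intensity and a p-value of detection. The submitters' processing notes name BeadStudio 3.0.19.0. The deposited intensity values had array medians between 159.0 and 159.6 and a lowest value of 96.8, so they were already normalized between arrays with background left in. The second deposited table was identical (largest difference 0). The design had foreseen neqc if values were raw, so it became an alternative. Values were taken to log2. Probes with a detection p-value under 0.05 on at least 4 arrays were kept, symbols came from GEO's platform annotation (13793 probes with 1 symbol, 8730 with none), and the brightest probe stood for a gene, giving 13479 features. Background left in makes changes of dim genes such as Cyp51 smaller. The number of arrays limits the precision.

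All 48 arrays entered each limma fit (lmFit, eBayes, limma 3.58.1, R 4.3.3), once with the 6 title groups and once with the nodules as 4 blocks of 5. P-values were adjusted by Benjamini-Hochberg over all features within a comparison and passed under 0.05. The scripts were tested on simulated data. All 5 measured members are counted in every comparison, but their values are not all given. Those of Srebf2, and those of Idi1 and Sqle in the blocks of nodules, are given only in part. In the other lists the named genes are, per comparison, the 2 largest rises and falls that passed, plus Srebf1, and a few others chosen after their values were seen (Dhcr7 in aHCC, Mvd, Pmvk, Scap and Mbtps1 in aHCC, Lipa, Npc2). Alternatives were neqc, the probe filter, the mean of probes, sets of 12 consecutive sample numbers as fixed or random block, array weights, other choices of controls and leaving out each array. The sets are known from sample numbers in the titles alone, and no label calls them a batch.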

Additional observations from a re-analysis of the deposited data

Results flagged for a closer look

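Of 50 groups of a member's values examined, 2 held an array whose gap to its nearest neighbour was large for the group's range, and chance flags about 1 in 20 groups. Both were aHCC sample 29. Its Idi1 level of 8.30 on the log2 scale left a gap of 0.667 of the group's range, and its Fdps level of 8.84 a gap of 0.762.

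For 6 of the 15 synthesis enzymes the krt-19+ minus krt-19- difference in samples 1-10 differed from that in samples 15-24 by the interaction test (limma, adjusted p under 0.05), as for 19.2% of all features. Leaving out 1 array at a time, the enzymes with a negative value that passed numbered 3 to 9, against 5 with all arrays. The difference of differences on the log2 scale was -1.06 for Cyp51, -0.96 for Pmvk, -0.97 for Sc5d, -0.81 for Hsd17b7, -0.74 for Ebp and 1.05 for Dhcr7. The calls of Ebp and Sc5d had adjusted p of 0.046 and 0.037 and were lost when some single nodules were left out and without the filter on dim probes (adjusted p = 0.0705 and 0.0569). The measured Krt19 level turns over between the same 2 series of nodules.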

How the results depend on the processing

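No paired analysis was possible because no label ties a lesion to an animal. Of 139 counts of members passing in 16 comparisons under 10 settings, 113 stayed within 1.5 times the count reported. Several of the counts reported were 0 and the largest was 3. A count of 0 that stayed 0 is among the 113, so this share says little about how steady the calls were. Cyp51 kept its call in both labelled nodule groups, adenomas, eHCC, samples 1-5 and samples 15-19 under all of these settings and with each array left out. With array weights the count became 2 in krt-19+ nodules, 3 in krt-19- nodules, 2 between aHCC and eHCC, 3 between aHCC and the nodules, 2 in the label difference within samples 15-24 and 2 in the interaction. With the sets of 12 as a fixed block it became 1 in adenomas, 1 in eHCC, 0 in aHCC and 0 between aHCC and eHCC (0 also with a random block). Without controls 25 to 27 it was 0 in aHCC. With controls of the same set alone, chosen after seeing the data, it was 1 in eHCC, 0 in aHCC and 1 in samples 20-24. In samples 1-5 and 15-19 it became 1 with neqc, no filter, either set block (the fixed one chosen after seeing the data) or without controls 25 to 27, and in samples 1-5 also with controls of the same number series. The cause was not tested.

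Of the 15 synthesis enzymes, the count passing went from 11 to 7 in eHCC, 7 to 1 in aHCC, 7 to 2 and 8 to 3 in krt-19+ and krt-19- nodules, 8 to 2 in samples 1-5 and 10 to 4 in samples 15-19 with the fixed set block, and from 7 to 0 in aHCC with controls of the same set. Array weights raised it from 0 to 11 in the label difference within samples 15-24, from 6 to 10 in the interaction and from 5 to 8 between aHCC and eHCC and between aHCC and the nodules. Over all features the array weights raised the calls from 855 to 4306 within samples 15-24, and the fixed block lowered those in aHCC from 5120 to 2077.

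Leaving out each array in turn gave 1 to 2 members in each labelled nodule group, 2 to 3 in adenomas and in eHCC, 0 to 1 in aHCC, 0 to 3 between aHCC and eHCC and 0 to 2 between aHCC and the nodules. It gave 1 to 3 in samples 1-5 and in samples 15-19, 0 to 1 in each label difference within a series, 1 to 2 in the interaction and 0 in the other 4 comparisons. Between aHCC and the nodules, Sc5d (-0.48) and Dhcr7 (-0.54) passed and turned to 0.07 and 0.08 with the sets as a fixed block. Mbtps1 in aHCC (-0.28) turned to 0.12 with that block and with controls of the same set. The series matrix table was not run because it is identical. Srebf2 lies at background, so its level is limited by signal, not by the number of arrays.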
